A study of Mus musculus with 3 samples.

Results

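The bulge is the part of the hair follicle that holds the hair follicle stem cells (HF-SCs). Its outer layer carries the stem cells, which are marked by Cd34 and Krt24, and its inner layer is made of differentiated cells that stay around the club hair, express keratin 6 and serve as a niche. Inner bulge cells are known as a source of FGF18 and BMP6, secreted factors that hold HF-SCs in quiescence. The cells described here were picked to represent that inner layer. Members were chosen by measured UMIs, and a cell entered if Krt6a made up at least 0.05% of its UMIs (unique molecular identifiers, each counting 1 captured mRNA), if at least 3 of 7 further genes (Fgf18, Bmp6, Tgm5, Sncg, Pcdh7, Prlr, Adcy1) had a UMI, and if Gja1 stayed under 0.05%. Of 8851 kept cells, 273 met the rule, and these cells are called Krt6a+ bulge cells below. The P38 (postnatal day 38) library contributed 237 of its 2109 cells, the 6-month library 25 of 3502 and the 12-month library 11 of 3240.

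The series holds 1 untreated back-skin scRNAseq library for each of 3 ages, and the labels give the genotype as Wildtype throughout. The study's methods describe Krt14-H2B-GFP mice, in which a keratin 14 promoter drives a nuclear green label, a sort on that label at every age with a set mix of epidermal and follicle cells, and male mice at P38 and 12 months but female mice at 6 months, while the labels name whole back skin and no sort. They place the follicles in catagen at P38, mostly in anagen at 6 months, and in mixed telogen and anagen at 12 months. The study also reports dermal cells in the older libraries but not in the youngest, which it ascribes to sorting labelled epithelial cells there. Age, sex, hair cycle stage and the cells loaded in each library therefore cannot be told apart, and no test between ages was made. The number of mice behind a library is not given in the sources used here. Kept cells had a median of 16170 UMIs at P38, 1019 at 6 months and 11439 at 12 months, while Krt6a+ bulge cells had medians of 15301, 11735 and 6948 UMIs. No barcode of a Krt6a+ bulge cell was shared between libraries. Their summed UMIs came to 3698332, 315250 and 97502, so 1 UMI is worth about 10.3 CPM (counts scaled to a common total of all UMIs of the class) at 12 months. All intervals below are 95% intervals that cover counting error only.

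The label was borne out only in part. Tgm5, a transglutaminase, was at 212 CPM in Krt6a+ bulge cells against 335 CPM in outer bulge cells at P38, and Prlr, the prolactin receptor, was at 165 against 162 CPM. The more selective genes were sparse: Fgf18 had a UMI in 63 of the 237 P38 cells, Sncg (gamma-synuclein) in 57 and Bmp6 in 84. Spinous cells of the same library, which should lack these ligands, had Fgf18 in 0 of 158 cells at a median of 21068 UMIs, and a count of 0 allows a share of cells with a UMI of up to 1.90%. The HF-SC marker Cd34 was found in 202 of the 237 cells and Krt24 in 115. Krt6a itself was widespread at P38, where 904 of 2109 kept cells (42.9%) reached 0.05%, as did 1164 of 3502 (33.2%) in the 6-month library and 58 of 3240 (1.79%) in the 12-month one. The name niche is therefore not used for these cells.

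Cells on both sides of the rule's thresholds are given as a description. Fgf18 is 1 of the 7 counted genes, so its level is tied to the grouping. At P38, the 105 cells with exactly 3 of the 7 further genes held Fgf18 at 13.5 CPM and Krt16 at 729 CPM, the 85 cells with 4 held 26.7 and 864 CPM, and the 47 cells with 5 or more held 94.6 and 2681 CPM. Krt14 was at 5889, 6580 and 3208 CPM in the same groups. The 146 cells just outside, with 2 of the 7 genes, held Fgf18 at 2.98 CPM and Krt16 at 766 CPM. On the Krt6a side, the 10 cells at 0.05 to 0.06% held Fgf18 at 16.6 CPM, and the 11 cells at 0.04 to 0.05% held 50.3 CPM. A further 99 P38 cells met the other gene conditions with Krt6a under 0.05%, and 19 of these had no Krt6a UMI.

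A pair of other classes served for comparison. Outer bulge cells had Cd34 and Krt24 at 0.01% of UMIs or more and Krt6a under 0.05%, and numbered 40, 46 and 69 at P38, 6 months and 12 months. Krt6a+ Gja1+ cells had both genes at 0.05% or more, and numbered 311, 704 and 18. Krt6a+ Gja1+ cells had a median of 15518 UMIs at P38 but of 593 and 718.5 UMIs at 6 and 12 months. At such depths 1 UMI of each gene meets the thresholds. Markers of other cell types were then summed in Krt6a+ bulge cells, with the ages ordered from P38 to 12 months here and below. All 3 Merkel cell markers were at 0 at each age. Of 6 T cell markers, 2, 1 and 1 were detected, with sums of 9.19, 9.52 and 20.5 CPM against 13.2, 12.2 and 9.99 CPM in outer bulge cells, and Cd3e, Cd3d, Cd3g and Ptprc were at 0. Of 6 Langerhans cell and macrophage markers, 5, 1 and 2 were detected, with sums of 109.5, 105 and 123 CPM against 96.0, 91.6 and 194 CPM, and Lyz2 was at 0. The 5 fibroblast markers together reached 4.06, 117 and 10.3 CPM. Outer bulge cells had the same fibroblast sum at 3.77 and 81.4 CPM at P38 and 6 months but at 11540 CPM at 12 months, with all 5 markers detected. Counts of called genes, and values for some of the genes, are therefore also given without that library. Without 12 months, 189 genes were higher and 77 lower, against 137 and 31 with all libraries. In Krt6a+ bulge cells of 12 months, the cell with the most UMIs (21097, or 21.6% of the sum) was the highest cell for 84 of the 134 higher genes that had a UMI there, so the 12-month levels below lean on that cell.

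Krt15, the bulge keratin, was the most abundant keratin of these cells and the fourth most abundant of all genes at P38, reaching 10579 CPM in the P38 library, 18373 CPM at 6 months and 9138 CPM at 12 months. Only Malat1 (21283 CPM), the small heat shock gene Hspb1 (12680 CPM) and mt-Atp6 (11955 CPM) lay above it at P38. Sfn, which encodes the keratinocyte protein 14-3-3 sigma, followed at 10025 CPM at P38. The basal keratins Krt5 and Krt14 were at 5332 and 5590 CPM at P38. Krt14 was lower in the older libraries, at 1852 and 1231 CPM, and Krt5 was at 5748 and 3867 CPM.

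Krt6a+ bulge cells carried more of the keratins Krt16, Krt17 and Krt80 than outer bulge cells, while Krt5, Krt14 and Krt15 differed by less than the test could call. The comparison asks what sets the Krt6a+ cells apart from their Cd34+ Krt24+ neighbours. Summed counts of each class and library were tested with edgeR's quasi-likelihood test, with the library as a block and Benjamini-Hochberg adjustment over 5592 genes. The 9 rule genes, Cd34 and Krt24 entered the gates and were left untested. Of the tested genes, 137 (2.45%) were higher and 31 (0.554%) lower in Krt6a+ bulge cells. The gates came from marker genes found in these cells, so the p-values are not independent of that choice.

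Krt17, a keratin of the follicle's outer root sheath, was at 3497, 4628 and 6595 CPM in Krt6a+ bulge cells against 909.6, 1144 and 621 CPM in outer bulge cells. At 12 months 1 cell held 60.8% of its UMIs, and the level without that cell was 3298 CPM. The classes differed in the same direction in each library, and the log2 difference was 2.43 ± 0.23 (edgeR adjusted p = 6.93e-06). Here and below, ± gives the SE of the edgeR fit to the libraries, not the spread between them. Krt16, a stress and inner bulge keratin that pairs with keratin 6, was at 1173, 393 and 205 CPM against 704, 16.3 and 7.99 CPM (log2 2.54 ± 0.53, edgeR adjusted p = 0.0129). At 12 months its counts came from 2 of 11 cells. Krt80 was at 73.0, 124 and 379 CPM against 37.7, 81.4 and 106 CPM (log2 1.14 ± 0.25, edgeR adjusted p = 0.0170), and was not called without 12 months (edgeR adjusted p = 0.0926). Krt79, a keratin of the upper follicle, also passed the test, but its 6-month level of 1256 CPM came from 2 cells and it had no UMI in Krt6a+ bulge cells at 12 months. Of the 15 listed inner bulge and companion keratins, 7 could be tested, 4 were higher and 0 lower, beside 2.45% and 0.554% of all tested genes. Their median log2 difference was 1.14, beside -0.00 for all tested genes.

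**Figure D1:**
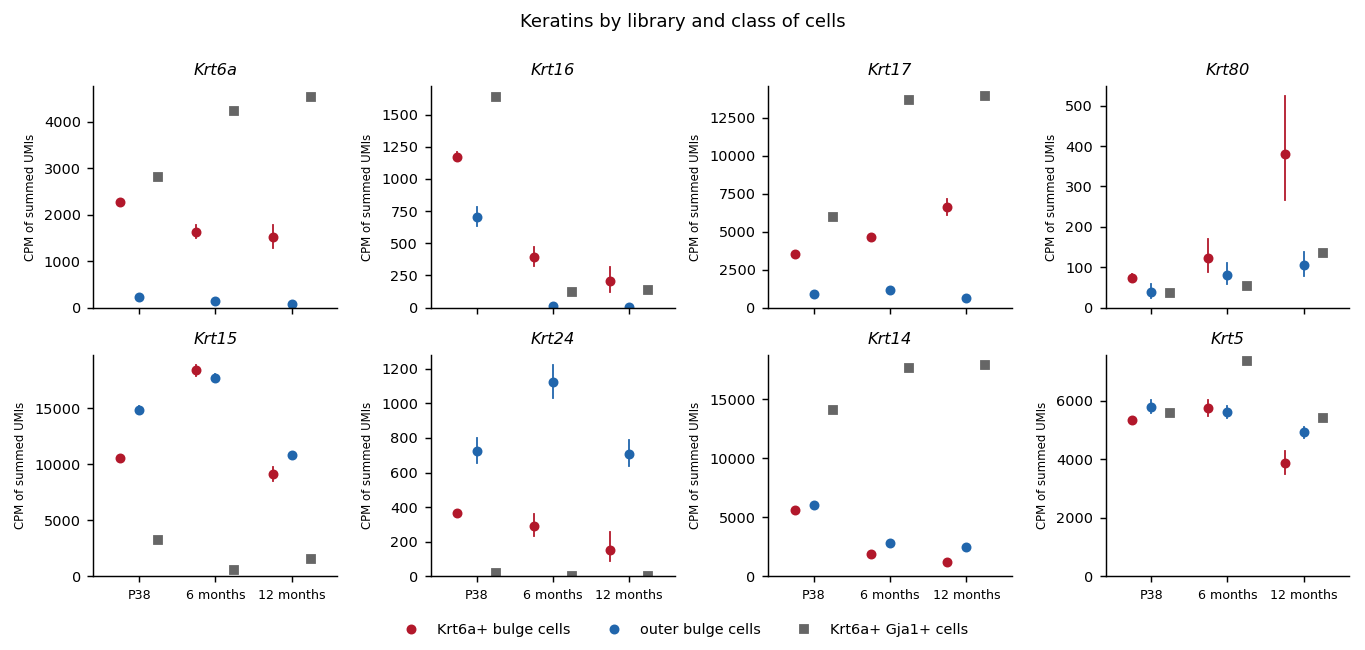
CPM of summed UMIs for 8 keratins at P38, 6 months and 12 months in Krt6a+ bulge cells (red), outer bulge cells (blue) and Krt6a+ Gja1+ cells (grey squares, no interval drawn). Points are 1 library each and bars are 95% counting intervals; Krt17 lies higher in Krt6a+ bulge than in outer bulge cells at each age, and Krt24 lies lower. Krt6a and Krt24 were used to gate the cells.

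The largest increases over outer bulge cells included genes known from the epithelial barrier. Sprr1a, a precursor of the cornified envelope, was at 1833, 1995 and 954 CPM in Krt6a+ bulge cells, against 130, 14.2 and 7.99 CPM in outer bulge cells (log2 5.41 ± 0.45, edgeR adjusted p = 2.16e-06). It was found in 176 of 237, 9 of 25 and 2 of 11 Krt6a+ bulge cells, so at 12 months the level rests on a pair of cells, of which 1 held 81.7% of the UMIs. Cldn4, a tight junction claudin, was at 143, 66.6 and 133 CPM against 5.65, 0 and 6.00 CPM (log2 4.83 ± 0.44, edgeR adjusted p = 4.52e-06). It was found in 69 of 237, 4 of 25 and 2 of 11 Krt6a+ bulge cells, and 1 cell held 92.3% of its 12-month UMIs. Where outer bulge cells had no UMI, as for Cldn4 at 6 months, the fitted value depends on the prior count and is no bound.

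Spink5, which encodes the epidermal protease inhibitor LEKTI, had the largest fitted log2 difference, 6.64 ± 0.62 (edgeR adjusted p = 5.96e-06). It was higher in 3 of 3 libraries, which the rule for naming these genes required. Its 2451 CPM at 12 months came from 1 cell of 11, against 63.3 CPM in 42 of 237 cells at P38 and 88.8 CPM in 5 of 25 at 6 months. Without that 1 cell the 12-month level was 0 CPM, against 6.00 CPM in outer bulge cells. Without the 12-month library the log2 difference of Spink5 was 3.66 ± 0.48, below the 5.83 of Chit1. Defb6, a beta-defensin, was at 792, 1469 and 123 CPM in Krt6a+ bulge cells against 56.5, 16.3 and 6.00 CPM in outer bulge cells. It was found in 139, 4 and 4 of the Krt6a+ bulge cells, and 1 cell held 24.8% of its UMIs at P38. Cst6, which encodes the protease inhibitor cystatin E/M, was at 517, 8609 and 1805 CPM against 175, 126 and 22.0 CPM, and 1 cell held 35.2%, 53.6% and 87.5% of its UMIs at the 3 ages. Chit1, Defb1, Ly6g6c, Ly6d, Serpinb2, Crabp2 and Tgfb2 completed the 12 largest increases, and for each of them 1 cell held 86.4% or more of the UMIs at 12 months. At P38, spinous cells held Sprr1a at 2952, Cldn4 at 480, Spink5 at 283 and Ly6d at 4531 CPM, above Krt6a+ bulge cells. Chit1, Defb1, Ly6g6c and Serpinb2 were also higher in spinous cells, while Defb6, Cst6, Crabp2 and Tgfb2 were lower there. The part of spinous cells in these increases was not tested. Defb6 is also on the list of upper follicle markers summed below, and the part of upper follicle cells was not tested either.

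**Figure D2:**
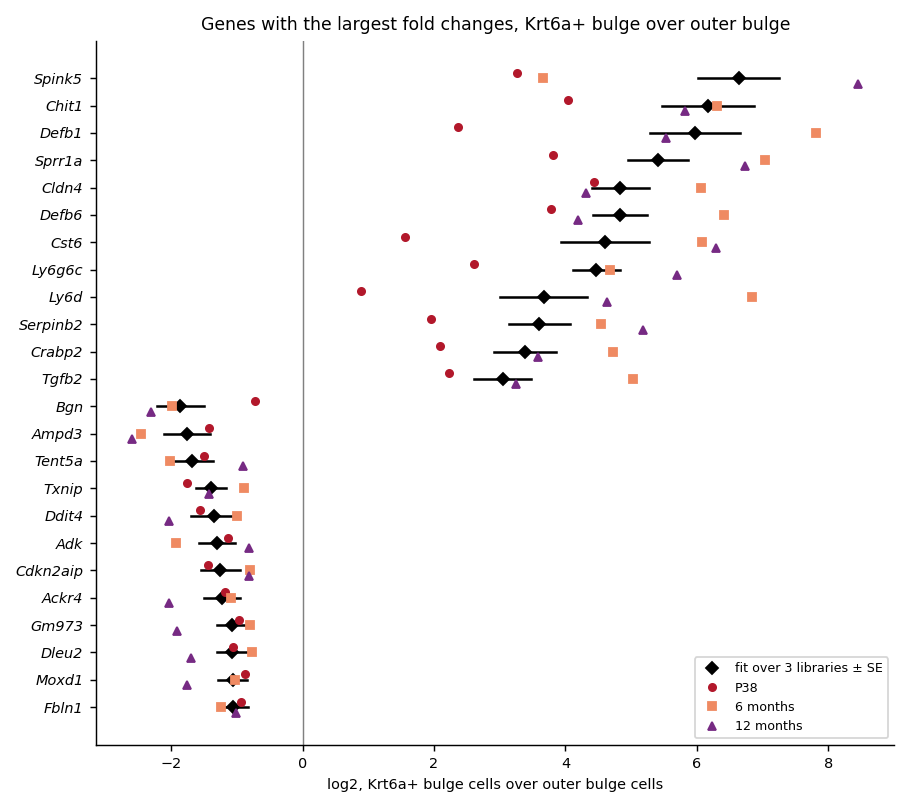
Log2 difference of Krt6a+ bulge over outer bulge cells for the 12 genes with the largest increase and the 12 with the largest decrease. Black diamonds are the edgeR fit over 3 libraries with the SE of that fit, which is not the spread of the libraries. Coloured points are the libraries with 0.5 counts added, and all points of a gene lie on the same side of 0 by the rule of choice.

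The genes that were lower differed less. Txnip, an inhibitor of thioredoxin and of glucose uptake, was at 58.1, 140 and 71.8 CPM in Krt6a+ bulge cells against 196, 263 and 206 CPM in outer bulge cells (log2 -1.40 ± 0.23, edgeR adjusted p = 0.00210). Fbln1, which encodes a fibulin of the extracellular matrix, was at 64.1, 47.6 and 82.0 CPM against 122, 116 and 176 CPM (log2 -1.06 ± 0.22, edgeR adjusted p = 0.0134). Postn, a matricellular protein of the bulge, was at 754, 879 and 1313 CPM against 1525, 1997 and 1906 CPM (log2 -0.93 ± 0.18, edgeR adjusted p = 0.00955). Bgn had the largest decrease, with a log2 difference of -1.86 ± 0.36, at 2.70, 47.6 and 20.5 CPM against 3.77, 193 and 126 CPM. Bgn is also expressed by fibroblasts, whose markers summed to 11540 CPM in the 12-month outer bulge cells, and their part in the difference was not tested. Without the 12-month library the log2 difference of Bgn was -1.74 ± 0.40.

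Among gene groups, 5 of 7 tested cornification genes were higher, beside 2.45% of all tested genes, and the tight junction genes Cldn1, Cldn4 and Ocln were higher too. Cldn1, the main claudin of epidermis, was at 397, 244 and 256 CPM in Krt6a+ bulge cells against 264, 40.7 and 32.0 CPM in outer bulge cells (log2 1.69 ± 0.34, edgeR adjusted p = 0.0111). At 12 months 1 cell held 68.0% of its UMIs, and the level without that cell was 105 CPM. Of 22 transglutaminase and cornification genes, 7 could be tested and 5 were higher (Sbsn, Krtdap, Lgals7, Sprr1a and S100a14), with a median of 1.45. Sbsn, which encodes suprabasin, was at 2839, 2557 and 2861 CPM against 1260, 928 and 857 CPM (log2 1.45 ± 0.17, edgeR adjusted p = 9.14e-05). The 4 spinous cell markers, of which Krtdap and Sbsn are also on the cornification list, were all detected and summed to 3638, 2842 and 2974 CPM against 1416, 1048 and 951 CPM, and the part of spinous cells in these values was not tested. Hemidesmosome and integrin genes had 17 tested members and none passed in either direction, with a median of -0.19. Ribosomal protein genes, 23 tested, also had no call and a median of -0.27. Upper follicle markers moved with these groups: their summed level was 4444, 7381 and 6902 CPM in Krt6a+ bulge cells against 996, 1172 and 641 CPM in outer bulge cells, with 4, 4 and 3 of 4 genes detected in Krt6a+ bulge cells. Most of that sum was Krt17, which is on that list, and its part in the result was not tested.

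Among secreted signals, Fgf18 and Bmp6 were part of the rule and are given as description. Fgf18 was at 34.6 (28.9 to 41.2), 136 and 51.3 CPM in Krt6a+ bulge cells and at 15.1, 40.7 and 22.0 CPM in outer bulge cells. Bmp6 was at 43.0, 25.4 and 41.0 CPM against 15.1, 4.07 and 7.99 CPM. At 6 months 1 cell held 53.5% of the Fgf18 UMIs. Fgf1, another FGF ligand, was at 10.8, 22.2 and 10.3 CPM against 16.9, 46.8 and 16.0 CPM. Among BMP and TGF-beta ligands that the rule did not use, 5 could be tested and 2 were higher, beside 2.45% of all tested genes. Bmp7 was at 32.7, 44.4 and 41.0 CPM against 13.2, 2.04 and 7.99 CPM (log2 2.18 ± 0.51, edgeR adjusted p = 0.0244), and its 12-month level rests on 4 UMIs in 2 cells. Tgfb2 was at 57.1, 31.7 and 174 CPM against 11.3, 0 and 18.0 CPM, with all of the 12-month UMIs in 1 cell. Bmp2 was at 175, 82.5 and 20.5 CPM against 151, 20.4 and 34.0 CPM and did not pass.

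No antagonist of these ligands was called between the bulge classes. Of 12 tested BMP and TGF-beta antagonists, none passed, and the median was -0.32. Grem1, a secreted BMP antagonist, was at 209, 454 and 256 CPM in Krt6a+ bulge cells and at 235, 409 and 502 CPM in outer bulge cells. Fst (follistatin), which binds activins, was at 2149, 257 and 3508 CPM against 1798, 405 and 372 CPM. Wnt inhibitors had 3 tested members, of which 2 were lower, beside 0.554% of all tested genes. Sfrp1, a secreted Wnt inhibitor, was at 388, 863 and 287 CPM against 578, 1592 and 827 CPM (log2 -0.95 ± 0.21, edgeR adjusted p = 0.0201), and Dkk3 was at 64.6, 133 and 92.3 CPM against 99.8, 228 and 270 CPM (log2 -0.87 ± 0.22, edgeR adjusted p = 0.0406), which was not called without 12 months (edgeR adjusted p = 0.0574). None of the 3 tested Wnt ligands passed, and Wnt10a came nearest, at 53.0, 50.8 and 82.0 CPM against 20.7, 34.6 and 26.0 CPM (edgeR adjusted p = 0.0687).

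**Figure D3:**
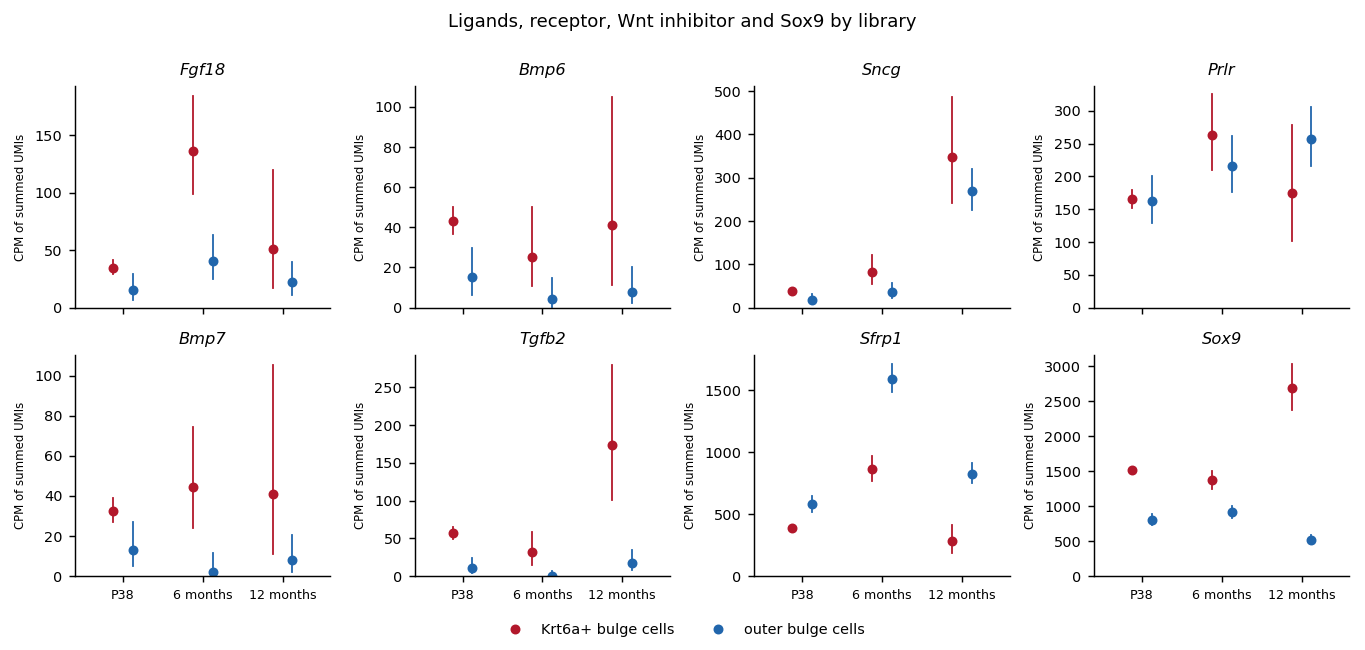
CPM of summed UMIs with 95% counting intervals for Fgf18, Bmp6, Sncg and Prlr, which are rule genes, and for Bmp7, Tgfb2, Sfrp1 and Sox9, in Krt6a+ bulge cells (red) and outer bulge cells (blue) at 3 ages. Prlr intervals overlap at each age; Sfrp1 lies lower and Sox9 higher in Krt6a+ bulge cells at each age, and at 12 months 1 cell held 84.4% of the Sox9 UMIs.

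Of 32 tested growth factor and cytokine receptors, 1 was lower, beside 0.554% of all tested genes, which is too few to describe the group. Fzd2, a Wnt receptor, was at 168, 295 and 164 CPM in Krt6a+ bulge cells against 299, 499 and 334 CPM in outer bulge cells (log2 -0.85 ± 0.20, edgeR adjusted p = 0.0280). Fgfr1 was at 138, 219 and 61.5 CPM against 199.6, 228 and 188 CPM, and Bmpr1a at 70.3, 73.0 and 30.8 CPM against 82.9, 79.4 and 81.9 CPM, and neither passed. Of 28 tested transcription factors of the bulge, 2 were higher, beside 2.45% of all tested genes, which is again too few to describe the group. Sox9, a regulator of HF-SC identity, stood at 1524, 1370 and 2687 CPM against 804, 918 and 524 CPM (log2 1.26 ± 0.26, edgeR adjusted p = 0.0111). At 12 months 9 of 11 cells had a Sox9 UMI but 1 cell held 84.4% of them, and the level without that cell was 537 CPM, near that of outer bulge cells. Without the 12-month library the log2 difference was 0.76 ± 0.18 (edgeR adjusted p = 0.00136). Klf5, a factor of proliferating and differentiating epithelia, was at 347, 152 and 318 CPM against 137, 46.8 and 46.0 CPM (log2 1.80 ± 0.26, edgeR adjusted p = 0.000603), with its 12-month UMIs in 2 cells. Lhx2 was at 214, 498 and 492 CPM against 333, 747 and 564 CPM, and Nfatc1 at 221, 165 and 144 CPM against 239, 142 and 124 CPM, and neither passed. Among cell cycle brakes, Cdkn1a, which encodes p21, was at 543, 482 and 820.5 CPM against 303, 216 and 186 CPM (log2 1.34 ± 0.24, edgeR adjusted p = 0.00502). At 12 months 1 cell held 81.2% of the Cdkn1a UMIs, and the level without that cell was 196 CPM. Without the 12-month library the log2 difference was 0.99 ± 0.20 (edgeR adjusted p = 7.83e-05).

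Immediate early genes differed in sign within the class. Of 21 tested, Fosl1 and Ier3 were higher and Fos and Nr4a1 lower, beside 2.45% and 0.554% of all tested genes. Fosl1, which encodes an AP-1 subunit, was at 606, 146 and 226 CPM in Krt6a+ bulge cells against 448, 57.0 and 29.98 CPM in outer bulge cells (log2 1.22 ± 0.32, edgeR adjusted p = 0.0464). Without the 12-month library its log2 difference was 0.74 ± 0.22. Fos, another AP-1 subunit, was at 3163, 4412 and 3610 CPM against 6785, 5219 and 5659 CPM (log2 -0.67 ± 0.17, edgeR adjusted p = 0.0352). AP-1 binds TGANTCA, so promoters were searched for these letters, whose reverse complement is the same pattern, from 250 bases before to 50 bases after each RefSeq start site (GRCm38.p6). Of the 137 genes that were higher, 99 had a promoter in the table and 20 of these (20.2%) held the motif, beside 274 of 4465 (6.14%) tested genes with a promoter and 7.81% of all 32851 promoters. Of the 31 that were lower, 25 had a promoter and 2 (8.0%) held it. Among the 12 largest increases, 7 had a promoter and 4 held the motif (Chit1, Sprr1a, Cldn4 and Serpinb2). A match is a description of letters, not of binding.

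The promoters of Sprr1a and Cldn4, which each held the motif at a pair of places, are shown with those of the ligand gene Fgf18 and of Sncg, in whose windows it was not found. Capitals mark TGANTCA and the TATA box letters TATAAA, which 13.6% of all promoters held on either strand. Sprr1a lies on the minus strand of chromosome 3, Cldn4 on the minus strand of chromosome 5, Fgf18 on the minus strand of chromosome 11 and Sncg on the minus strand of chromosome 14.
Sprr1a promoter, chr3:92485832-92486131: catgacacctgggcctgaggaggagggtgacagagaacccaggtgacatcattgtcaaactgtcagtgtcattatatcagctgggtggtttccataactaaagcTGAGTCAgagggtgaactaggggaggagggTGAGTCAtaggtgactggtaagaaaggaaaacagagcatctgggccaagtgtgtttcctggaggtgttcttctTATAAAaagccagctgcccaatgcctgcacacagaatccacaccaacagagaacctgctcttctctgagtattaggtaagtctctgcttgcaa
Cldn4 promoter, chr5:134946885-134947184: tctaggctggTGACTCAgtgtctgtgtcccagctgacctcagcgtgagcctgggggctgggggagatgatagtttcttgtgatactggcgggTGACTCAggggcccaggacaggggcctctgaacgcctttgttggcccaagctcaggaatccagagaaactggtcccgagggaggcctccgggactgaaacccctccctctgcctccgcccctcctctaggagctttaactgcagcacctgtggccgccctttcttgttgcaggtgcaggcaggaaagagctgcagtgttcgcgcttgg
Fgf18 promoter, chr11:33147351-33147650: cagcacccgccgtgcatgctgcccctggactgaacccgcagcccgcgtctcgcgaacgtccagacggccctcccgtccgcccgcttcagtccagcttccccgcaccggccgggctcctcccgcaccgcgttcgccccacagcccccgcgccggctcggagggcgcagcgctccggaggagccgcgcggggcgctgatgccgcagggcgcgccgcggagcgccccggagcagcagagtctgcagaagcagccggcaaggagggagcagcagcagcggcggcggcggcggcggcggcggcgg
Sncg promoter, chr14:34374620-34374919: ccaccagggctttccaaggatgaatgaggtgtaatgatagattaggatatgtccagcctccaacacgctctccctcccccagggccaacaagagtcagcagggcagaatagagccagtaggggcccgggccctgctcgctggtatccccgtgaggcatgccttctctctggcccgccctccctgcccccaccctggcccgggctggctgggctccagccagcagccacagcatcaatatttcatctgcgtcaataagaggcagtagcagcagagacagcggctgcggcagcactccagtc
In Sprr1a the motif began 146 and 116 bases before the start site and the TATA box letters 43 bases before it. In Cldn4 it began 240 and 158 bases before.

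Krt6a+ bulge cells were then set against Krt6a+ Gja1+ cells, which share keratin 6 but are rich in connexin 43. Of 8953 genes tested in the same way, 431 (4.81%) were higher and 382 (4.27%) lower in Krt6a+ bulge cells. Krt24, which is not in this pair of gates, was at 363, 292 and 154 CPM in Krt6a+ bulge cells against 19.9, 4.06 and 0 CPM in Krt6a+ Gja1+ cells (log2 4.95 ± 0.45, edgeR adjusted p = 5.93e-25). Cd34 was at 355, 495 and 472 CPM against 41.7, 21.3 and 67.8 CPM (log2 3.72 ± 0.43, edgeR adjusted p = 1.79e-15), and Krt15 at 10579, 18373 and 9138 CPM against 3261, 548 and 1559 CPM (log2 3.37 ± 0.61, edgeR adjusted p = 2.03e-06). Krt14 ran the other way, at 5590, 1852 and 1231 CPM against 14068, 17616 and 17892 CPM (log2 -2.56 ± 0.58, edgeR adjusted p = 0.000253). The Krt6a+ Gja1+ cells of 12 months held 14755 UMIs in all, so 1 UMI there is worth 67.8 CPM, and a count of 0 allows up to 203 CPM.

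BMP and TGF-beta antagonists separated these classes. Of 13 tested, 7 were higher in Krt6a+ bulge cells and 0 lower, beside 4.81% and 4.27% of all tested genes. Their median log2 was 1.27, beside 0.01 for all tested genes. Grem1 was at 209, 454 and 256 CPM in Krt6a+ bulge cells against 24.0, 6.34 and 0 CPM in Krt6a+ Gja1+ cells (log2 4.44 ± 0.44, edgeR adjusted p = 6.41e-21), and Nog (noggin) at 57.3, 31.7 and 30.8 CPM against 4.88, 1.01 and 0 CPM (log2 3.85 ± 0.53, edgeR adjusted p = 4.92e-11). Of 17 hemidesmosome and integrin genes, 9 were higher and 0 lower, beside the same shares of all tested genes (4.81% and 4.27%). Col17a1, a hemidesmosomal collagen that HF-SCs need, was at 1433, 1275 and 1323 CPM against 523, 154 and 0 CPM (log2 2.65 ± 0.48, edgeR adjusted p = 1.63e-06). Of 4 tested Wnt ligands, Wnt4, Wnt7b and Wnt10a were higher, beside 4.81% of all tested genes. Among bulge transcription factors 5 were higher and 4 lower of 37, beside 4.81% and 4.27% of all tested genes. Nfatc1, a factor of HF-SC quiescence, was at 221, 165 and 144 CPM against 75.7, 9.89 and 67.8 CPM (log2 2.52 ± 0.40, edgeR adjusted p = 2.55e-08). Sox9, at 1678, 1109.7 and 1491 CPM in Krt6a+ Gja1+ cells, did not pass.

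EGF ligands were on the Krt6a+ Gja1+ side. Of 6 tested, 4 were lower in Krt6a+ bulge cells (Hbegf, Areg, Epgn and Nrg1), beside 4.27% of all tested genes. Nrg1 (neuregulin 1) was at 24.3, 31.7 and 0 CPM in Krt6a+ bulge cells against 127, 211 and 0 CPM in Krt6a+ Gja1+ cells (log2 -2.56 ± 0.42, edgeR adjusted p = 8.99e-08). Gjb2, which encodes connexin 26, was at 8.11, 22.2 and 0 CPM against 144, 876 and 881 CPM (log2 -4.84 ± 0.47, edgeR adjusted p = 1.85e-21). Fabp5, a fatty acid-binding protein, was at 56.8, 105 and 41.0 CPM against 899.8, 5822 and 5829 CPM (log2 -5.21 ± 0.56, edgeR adjusted p = 8.02e-18). Bglap3, Wfdc18, Car6 and Dnmt3l had the largest decreases, and each had 4 or fewer Krt6a+ bulge cells with a UMI at any age. Cck, S100a4, Ptn, Col8a2, Prss23, Vwa2, Il31ra, Aqp3 and Fam129a were among the 12 largest increases, and Ptn, a heparin-binding growth factor, was found in 231 of 237, 23 of 25 and 10 of 11 Krt6a+ bulge cells. Depth differed with the class at 6 and 12 months, and its part in these values was not tested, but the P38 classes had like medians of 15301 and 15518 UMIs.

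Within P38 the cells varied most in a few genes. Of 1970 genes with a mean of 1 UMI or more per cell, the variance over that of Poisson counting had a median of 1.62. It was highest for Cst6 (262), Defb6 (242), Krt17 (163), Sprr1a (135), Fos (132), Mt1 (103), Hspb1 (103), Krt79 (103), Hspa1a (93.4) and Serpinb2 (92.7). For Cst6, Defb6, Krt79 and Serpinb2 a few cells set the value: 6, 16, 4 and 9 of the 237 cells reached 1000 CPM. Krt17 and Sprr1a split the cells more evenly, with 99 and 56 cells past that level. Krt17 had a median of 467 CPM over cells and a 90th percentile of 11091 CPM.

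Single pairs of genes were also compared across these cells. Krt24 had Spearman correlations of 0.51 with Cd34, 0.50 with Hspa1a, 0.49 with Fos and 0.42 with Krt14, but of -0.34 with Sncg and -0.36 with Krt17. Sncg correlated with Sprr1a at 0.45 and with Krt16 at 0.34, and with Krt14 at -0.45 and Krt17 at -0.02. Krt15 correlated with Krt17 at -0.55. Fgf18 had correlations of 0.31 with Krt15, 0.18 with Sncg, 0.13 with Sprr1a, -0.22 with Krt14 and -0.25 with Krt17. These values describe 237 cells of 1 library that share depth and handling. Sncg and Fgf18 are sparse, with no UMI in 180 and 174 cells. Both are also rule genes, so the choice of cells enters their correlations, and its part was not tested.

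**Figure D4:**
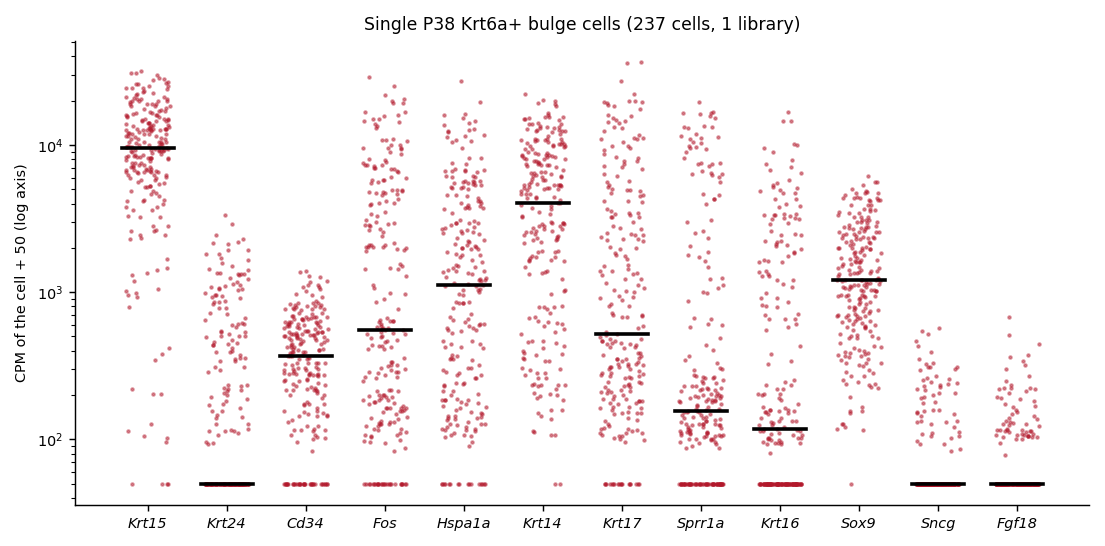
CPM plus 50 on a log axis for 12 genes in each of the 237 P38 Krt6a+ bulge cells, with the median of cells as a black bar. Cells with no UMI lie at the bottom. Krt15 reached 1000 CPM in 217 of the cells and Krt17 in 99, while Sncg and Fgf18 reached it in none.

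Between ages the comparison has 1 library on each side and hence no replicate check. Of 8644 genes with at least 20 UMIs together, 491 (5.68%) were at least 2-fold higher at 12 months than at P38 and 235 (2.72%) at least 2-fold lower, each with a counting interval that excluded 0. Without that condition the counts were 1943 (22.5%) and 1073 (12.4%). At 6 months, of 8828 genes, 822 (9.31%) were at least 2-fold higher and 318 (3.6%) lower with such an interval, and 1449 (16.4%) and 671 (7.6%) without it. All genes together had a median log2 ratio of 0.22 at 12 months and 0.25 at 6 months. With TMM factors, which bring those medians to -0.02 and 0.04, the counts became 327 higher and 382 lower at 12 months and 533 higher and 516 lower at 6 months, so the excess of higher genes rests on the scaling.

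Heat shock genes were on the lower side at 12 months. Of 18 heat shock and unfolded protein genes, 7 were at least 2-fold lower at 12 months than at P38 and 0 higher, beside 2.72% and 5.68% of all genes. Hspa1a, an inducible HSP70, was at 2797 CPM at P38, 1253 CPM at 6 months and 256 CPM at 12 months, found in 221, 21 and 9 cells. Outer bulge cells showed Hspa1a at 4717, 1600.0 and 254 CPM at the same ages. The summed level of the group was 33335 CPM at P38 and 12502 CPM at 12 months in Krt6a+ bulge cells, and 39218 and 8021 CPM in outer bulge cells. Thbs1 (thrombospondin 1) was at 677, 270 and 41.0 CPM, Phlda1 at 1115, 1031 and 41.0 CPM, and Socs3, a feedback inhibitor of cytokine signalling, at 353, 289 and 20.5 CPM. The same genes were at 642, 165 and 222 CPM, 1023, 1258 and 182 CPM, and 418, 106 and 164 CPM in outer bulge cells. Has2, Ypel5 and 2310046K23Rik had no UMI in the 11 cells of 12 months, which allows up to 30.8 CPM, and were at 137, 143 and 267 CPM at P38.

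On the higher side, Gm10076 was at 15.1 CPM at P38, 742 CPM at 6 months and 892 CPM at 12 months, in 47 of 237, 25 of 25 and 10 of 11 cells. Outer bulge cells had it at 22.6, 837 and 1005 CPM, and the headers name Cell Ranger 6.1.2 for P38 and 6.0.0 for the older libraries, so processing and age cannot be told apart. Ier5l was at 12.7, 124 and 133 CPM in 35, 15 and 7 cells, and Hexim1, which encodes an inhibitor of transcription elongation, at 22.2, 53.9 and 164 CPM in 60, 11 and 7 cells. Fam71a was at 5.41, 6.34 and 215 CPM, with 2 UMIs at 6 months and 7 of 11 cells at 12 months. In outer bulge cells Ier5l was at 20.7, 118 and 58.0 CPM, Hexim1 at 33.9, 65.1 and 75.9 CPM and Fam71a at 11.3, 130 and 160 CPM. Spink5, Nipal1 and Cdsn were set by 1 cell at 12 months, and Klk10, Psapl1 and Fam129a by 2 or 4 cells. Antigen presentation class I genes were above 0 at 12 months for 11 of 11 members, beside 58.4% of all genes, with a median log2 of 0.67 beside 0.22, though only H2-Q4 and Psmb9 were at least 2-fold higher. At 6 months 9 of 11 were above 0, beside 63.6% of all genes, and the median of 0.20 lay below the 0.25 of all genes. Their summed level was 3763, 3670.1 and 5723 CPM in Krt6a+ bulge cells, and 4073 CPM at P38 and 2488 CPM at 12 months in outer bulge cells.

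**Figure D5:**
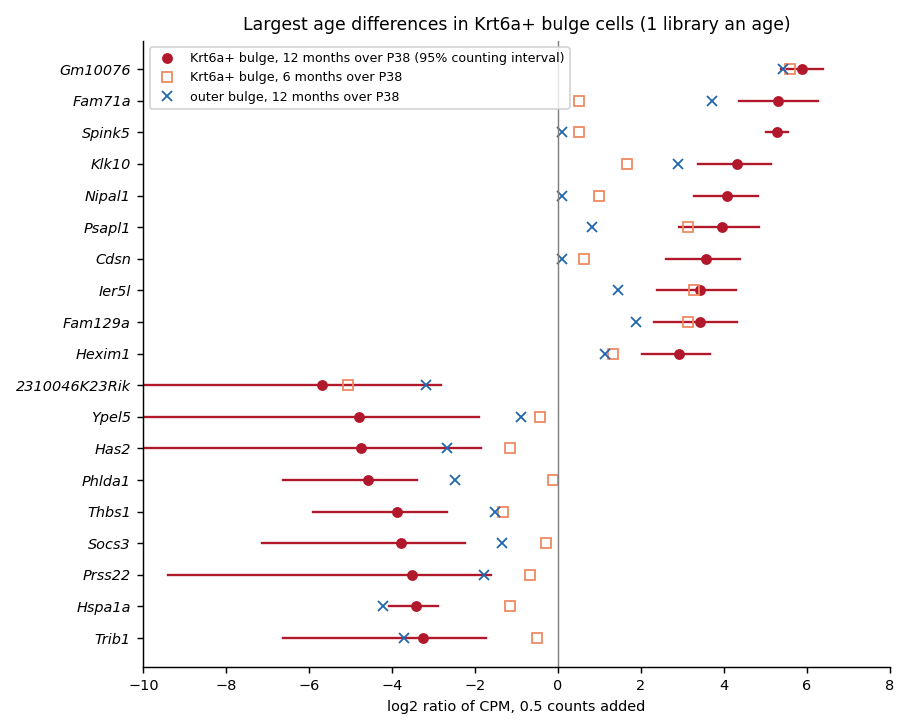
Log2 ratio over P38 for named genes with the largest increases and decreases at 12 months in Krt6a+ bulge cells. Filled circles are 12 months with 95% counting intervals (cut at the left edge), open squares are 6 months, and crosses are outer bulge cells at 12 months; the 6-month points lie on the same side of 0 as the circles by the rule of choice.

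Among kept cells, the P38 share of Krt6a+ bulge cells was 11.2% with an exact 95% interval of 9.92 to 12.7%. The 6-month share was 0.714%, with an interval of 0.463 to 1.05%, and the 12-month share was 0.340%, with one of 0.170 to 0.607%. The mix of sorted cells, any dermal cells of the older libraries and the shallow barcodes of the 6-month library enter the denominator. None of these can be told apart from age in these shares. As a share of Krt6a+ bulge and outer bulge cells together, Krt6a+ bulge cells were 85.6%, 35.2% and 13.8%, and the threshold on Krt6a moves cells between these classes.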

How the data were processed

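Back-skin cells of 3 ages were profiled by droplet scRNAseq, 1 library per age. The authors deposited UMI counts per gene and barcode, made with Cell Ranger against mm10; the submitters' notes name version 6.1.2, and the file headers 6.1.2 for P38 and 6.0.0 for 6 and 12 months. Doublet removal before deposit is not given in the sources used here. Barcodes with 201 to 4999 genes and under 15% mitochondrial UMIs were kept, 8851 in all; at 6 months this left more cells than the study's methods state. The members and gene lists were chosen with earlier results of these data known.

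Counts were summed per class and library and tested with edgeR 4.0.16 in R 4.3.3 (quasi-likelihood, TMM, filterByExpr, library as a term, Benjamini-Hochberg, threshold 0.05), which was tested on simulated data. For the outer bulge comparison, 39% of simulated 2-fold and 97.9% of 4-fold changes were recovered, with 3 false calls. For the Krt6a+ Gja1+ comparison these shares were 20% and 79.4%, with 1 false call. A gene that did not pass can therefore still differ by 2-fold. The p-values and SEs rest on a spread over 3 libraries, which also differ in age, that edgeR moderates with that of all genes. A gene's own spread over libraries can therefore enter little. Against outer bulge cells, Sprr1a had an SE of 0.45, while its log2 differences in the 3 libraries had an SD of 1.78. Col8a2 differed from Krt6a+ Gja1+ cells by log2 2.46, 8.13 and 1.80 in the 3 libraries, yet had an edgeR adjusted p of 4.51e-16. Named for each class comparison were the 12 genes with the largest log2 difference in each direction among those past the threshold, of one direction in every library and at 50 CPM or more in 1 class; for age, the 10 largest 12-month ratios in each direction with 100.0 CPM or more in a library and the same direction at 6 months. Members of the gene lists and rule genes were also named. Age ratios used 0.5 added counts, at least 20 counts and exact conditional intervals. Alternatives were DESeq2 1.42.0, other scalings, filters, marker thresholds, Scrublet scores (scanpy 1.11.5), thinning to 3000 UMIs and leaving out each library. Promoters came from RefSeq (GRCm38.p6). Results for a few genes are not reported here.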

Additional observations from a re-analysis of the deposited data

Results flagged for a closer look

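Lgr4, a receptor of R-spondins, differed in direction between ages: its log2 ratio of Krt6a+ bulge over outer bulge cells was -0.64 at P38 and 1.12 at 12 months, each from 1 library, and the difference was not tested. Barcodes with 5000 or more genes lay outside the kept cells, and some met the marker rule. At P38 these were 8 of 120 such barcodes (6.67%), beside 11.2% of kept cells, and at 6 months 7 of 430 (1.63%), beside 0.714% of kept cells. A count of 0 would allow shares of up to 2.5% and 0.698%.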

How the results depend on the processing

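Against outer bulge cells, 137 genes were higher and 31 lower. DESeq2 called 48 and 3, Krt6a at 0.1% 84 and 14, at least 4 further markers 66 and 18, cells thinned to 3000 UMIs before the rule 14 and 13, and removal of the highest Scrublet scores 62 and 14. A filter of 1 count gave 211 higher, at least 2 further markers 77 lower, and barcodes with 5000 or more genes 49 lower. Leaving out each library in turn gave 30 to 189 higher and 3 to 77 lower. Without the members that held Krt24 at 0.01% or more, an alternative chosen after seeing the data, 100 were lower. Without those that held Krt79 at 0.1% or more, also chosen after seeing the data, 92 were higher and 22 lower. Of the named genes of both class comparisons together, 11 lost the call with DESeq2, 12 with thinning, 11 without P38 and 12 without 6 months. Over all settings, 62 lost calls fell in the comparison with outer bulge cells and 1 in that with Krt6a+ Gja1+ cells. Named genes that a setting left untested are not in these counts. Against Krt6a+ Gja1+ cells, 431 were higher and 382 lower. DESeq2 called 225 and 158, thinning 76 and 113, Krt6a at 0.1% 245 lower, the members without Krt24 250 lower and cells of at least 1000 genes, also chosen after seeing the data, 234 higher. That last setting left out the 12-month library, which had 0 such Krt6a+ Gja1+ cells. Leaving out each library gave 211 to 327 higher and 128 to 396 lower.

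For 6 months over P38, with 822 higher and 318 lower, TMM factors gave 533 and 516, at least 50 counts 527 higher and 5 added counts 104 lower. For 12 months over P38, with 491 and 235, TMM factors gave 327 and 382 and 5 added counts 61 lower. The number of Krt6a+ bulge cells at P38 became 132 with at least 4 further markers, 383 with at least 2 and 37 after thinning. At 6 months it became 15, 38 and 7, and 11 with Krt6a at 0.1%. At 12 months it became 6 with at least 4 markers, 6 after thinning and 6 with Krt6a at 0.1%. The 6-month log2 ratio over P38 changed sign with at least 2 further markers for Cdsn (-0.39) and Prss22 (0.41), with at least 4 for Spink5 (-1.47), Klk10 (-1.08), Cdsn (-0.77) and Socs3 (0.49), and with Krt6a at 0.1% for Klk10 (-0.34), Socs3 (0.073), Prss22 (0.19) and Trib1 (0.049). The cause of these changes was not tested. No paired analysis was possible between ages because each age is 1 library, while the class comparisons already pair the classes within each library. The 11 cells of 12 months limit what can be read at that age.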
